A study of Mus musculus with 107 samples.

Results

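The genes described here encode 3 beta subunits of the sodium pump, Atp1b1, Atp1b2 and Atp1b3, and 3 of its FXYD regulators, Fxyd1, Fxyd6 and Fxyd7. They are 6 of the 18194 genes measured, were matched by symbol in the array annotation, and were each read from the one-symbol probe set with the highest mean over all arrays. The study purified ribosomes, with the mRNA on them, from chosen cell types of the mouse brain and spinal cord by translating ribosome affinity purification (TRAP). In TRAP a transgene on a bacterial artificial chromosome (BAC) carries a tagged ribosomal protein into the cells that use the regulatory region of a driver gene. There were 76 TRAP arrays of 24 populations, 17 of neurons and 7 of glia, and 31 arrays of the RNA left unbound, which stands for the whole of a tissue. A population had 3 arrays, except cortical astrocytes with 4 and Purkinje neurons with 6, while unbound RNA was measured on 9 cortical, 7 cerebellar and 6 striatal arrays and on 3 from each of basal forebrain, brainstem and spinal cord.

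All mice, those behind the unbound RNA included, carried a BAC transgene, and the labels name no age, sex, strain or untransgenic control. The drivers for glia were aldh1l1 (astrocytes of cortex and cerebellum), septin4 (Bergmann glia), cmtm5 (mature oligodendrocytes of cortex and cerebellum) and olig2 (mixed oligodendroglia of the same tissues). Those for cortical neurons were etv1 (layer 5a), glt25d2 (layer 5b), ntsr1 (layer 6), cck, cort and pnoc. Cerebellar neurons came from pcp2 (Purkinje), neurod1 (granule), grm2 (Golgi), grp (unipolar brush) and lypd6 (stellate and basket) mice, striatal medium spiny neurons from drd1 and drd2 mice, and the 4 cholinergic populations (striatum, basal forebrain, brainstem motor nuclei and spinal cord) from 1 chat line. Each population came from 1 line, apart from cortical astrocytes (JD130 and JD133) and Purkinje neurons (DR166 and DR168), so a cell type and the line that reports it cannot be told apart for the others. The driver's own activity sets which cells were sampled, and a driver active in several cell types samples all of them.

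The sodium pump is an ATPase in the plasma membrane that moves sodium out of a cell and potassium in, and its gradients drive the action potential, the uptake of glutamate and potassium, and much of the secondary transport of the brain. A pump holds an alpha subunit, which splits ATP and carries the ions, and a glycosylated beta subunit, which the alpha subunit needs to reach the membrane and which tunes its affinity for the ions. Small FXYD proteins bind the pump in a tissue-specific way and change its kinetics: Fxyd1 is phospholemman, and Fxyd6 (phosphohippolin) and Fxyd7 are known from the nervous system. Atp1b2 also carries the name AMOG, adhesion molecule on glia.

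RefSeq's promoter table for GRCm38.p6 listed 4 of the 6 genes. The windows of Atp1b1 and Atp1b3 are shown because these beta subunit genes lay on opposite sides of the comparison of mature oligodendrocytes with neurons described further on. Each line gives the 250 bases before the annotated start, 5′ to 3′ on the gene's strand, with capitals for the GC box GGGCGG and the CCAAT box, or for their reverse complements.
Atp1b1 (chr1:164458356-164458605, minus strand): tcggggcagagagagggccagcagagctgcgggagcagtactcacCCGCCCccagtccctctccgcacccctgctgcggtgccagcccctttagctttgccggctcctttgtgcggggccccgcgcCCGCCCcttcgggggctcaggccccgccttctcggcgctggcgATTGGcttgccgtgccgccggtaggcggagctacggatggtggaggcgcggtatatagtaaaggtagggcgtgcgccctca
Atp1b3 (chr9:96364432-96364681, minus strand): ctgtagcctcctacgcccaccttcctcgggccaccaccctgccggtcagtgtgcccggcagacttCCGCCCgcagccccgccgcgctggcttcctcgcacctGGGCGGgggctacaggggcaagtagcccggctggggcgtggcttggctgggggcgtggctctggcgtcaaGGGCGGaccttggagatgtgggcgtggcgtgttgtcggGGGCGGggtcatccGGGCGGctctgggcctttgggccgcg
Both strands were searched for the GC box, the CCAAT box and the TATA box spelled TATAAA, and no match overlapped another in these windows. The Atp1b1 window held 2 GC boxes and 1 CCAAT box, all on the opposite strand and starting 205, 124 and 81 bases before the start. The Atp1b3 window held 5 GC boxes, 4 on the gene's own strand at 148, 78, 40 and 26 bases before the start and 1 on the opposite strand at 185, and no CCAAT. Among 27025 promoter windows of the same length, 32.9% held a GC box, 34.5% a CCAAT box and 13.0% a TATA box. GC content was 70.4% for Atp1b1 and 73.6% for Atp1b3, with 24 CpG in each, against a median GC content of 52.0% and a median of 6 CpG over all windows. The windows of Fxyd1 (57.2% GC, 3 CpG, none of the 3 motifs) and Fxyd6 (50.4% GC, 5 CpG, 1 CCAAT 159 bases before the start on its own strand) were nearer those medians. Unlike those of Atp1b1 and Atp1b3, both lay inside the annotated span of their own gene.

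Values below are log2 intensities after each group was shifted so that the Affymetrix biotinylated controls were equal between groups, and they are given as mean ± SD over arrays. They compare 1 gene between samples, never 1 gene with another. A level of 6 (an intensity of 64) served as the expression minimum. In each array, 25.8% to 41.6% of values lay at the array's own minimum, and some weak or strong genes have the same value on every array of a group, so an SD near 0 is no measure of precision and values under 6 have no order. Neuron markers reached the minimum for 6 of 6 genes in all 17 neuron populations, astrocyte markers for 6 of 6 in the 3 astroglial ones and myelin markers for 5 of 5 in the 4 oligodendroglial ones. RNA of other cells was present too: 5 or 6 of 6 neuron markers passed the minimum in every glial population. Astrocyte markers reached it for 6 of 6 genes in 7 neuron populations. Their summed level was 15.28 to 15.42 in layer 5a, 15.07 to 15.12 in unipolar brush, 13.999 to 14.88 in layer 6, 14.09 to 14.57 in Cort+, 13.55 to 14.30 in layer 5b, 13.27 to 13.42 in stellate and basket and 11.30 to 11.34 in Drd1+ neurons, against 16.49 to 16.55 in cerebellar astrocytes and 9.52 to 10.17 in granule neurons. Myelin markers reached it for 5 of 5 genes in Bergmann glia, with a summed level of 16.31 to 16.39 against 16.75 to 17.04 in cerebellar mature oligodendrocytes, and in 10 neuron populations. Choroid plexus markers reached it for 3 of 4 genes in cerebellar astrocytes (15.61 to 15.99) and 1 of 4 in striatal cholinergic neurons (14.14 to 15.73). Unbound RNA of the striatum fell into 2 sets of arrays, 2 from the chat line and 4 from the drd1 and drd2 lines. In Atp1b2 the chat arrays read 12.45 and 12.10 and the others 8.33 to 8.99, so striatal comparisons with unbound RNA are given both pooled and within the population's own line.

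Atp1b1, the beta subunit found in most tissues, averaged higher in neurons than in any glial population after this scaling, apart from granule neurons, which lay among the glia. For medium spiny neurons this order rests on the scaling, with shifts of 1.29 in Drd1+ and 0.91 in Drd2+ neurons against -0.15 in cortical astrocytes. Without the shifts both averaged slightly below cortical astrocytes. The neuron means spanned 12.73 to 15.13 (median 14.46 over 17 populations), the astroglial means 10.43 to 13.19 and the oligodendroglial means 9.10 to 12.45. At the top stood the deep cortical layers and motor neurons, with 15.13 ± 0.15 in layer 5a, 15.11 ± 0.083 in layer 6, 14.96 ± 0.15 in layer 5b and 14.96 ± 0.074 in brainstem motor neurons. The other cortical neurons followed at 14.63 ± 0.066 in Cort+, 14.57 ± 0.22 in Cck+ and 14.38 ± 0.17 in Pnoc+ neurons. A step of 0.33 separated motor neurons from Cort+ neurons, whose arrays did not overlap. Striatal populations lay in the middle, with 14.60 ± 0.12 in Drd1+, 14.14 ± 0.14 in Drd2+ and 14.40 ± 0.22 in cholinergic neurons, close to 14.26 ± 0.079 in basal forebrain and 14.46 ± 0.24 in spinal cholinergic neurons. In the cerebellum the means were 14.54 ± 0.011 in stellate and basket, 14.32 ± 0.034 in unipolar brush, 14.31 ± 0.22 in Purkinje and 13.98 ± 0.18 in Golgi neurons. Granule neurons stood below the other neurons: their arrays read 12.30, 12.78 and 13.11, overlapping those of cortical astrocytes.

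In the glia, cortical astrocytes read 13.40, 13.29, 13.63 and 12.45, cerebellar astrocytes 11.17, 11.05 and 11.20 and Bergmann glia 10.22, 10.39 and 10.67. These 3 astroglial sets of arrays did not overlap each other. Mature oligodendrocytes averaged 12.45 ± 0.50 in cortex and 11.99 ± 0.53 in cerebellum, and mixed oligodendroglia 12.09 ± 0.79 in cortex. The lowest level of all was that of cerebellar mixed oligodendroglia, with arrays of 9.24, 9.18 and 8.87. Of 23 neighbouring pairs in the order of 24 populations, 18 differed by no more than the larger SD of the pair. In whole tissue, unbound RNA averaged 14.97 ± 0.13 in basal forebrain, 14.85 ± 0.088 in brainstem, 14.61 ± 0.13 in spinal cord, 14.44 ± 0.51 in cortex, 14.08 ± 0.61 in striatum and 13.97 ± 0.42 in cerebellum. In pooled tissue or ribosome RNA of this kind, fewer cells of a type and less RNA per cell cannot be told apart.

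Atp1b2, the adhesion molecule on glia, was highest in the astroglia but not confined to them. Bergmann glia read 13.73, 13.75 and 13.73, cerebellar astrocytes 13.56, 13.70 and 13.76 and cortical astrocytes 13.76, 13.17, 13.71 and 13.64, and these arrays overlapped. Directly below came 4 neuron populations, with 13.36 ± 0.011 in unipolar brush, 13.06 ± 0.38 in granule, 12.79 ± 0.39 in layer 5a and 12.42 ± 0.19 in stellate and basket neurons. The granule arrays of 12.73, 12.98 and 13.48 overlapped those of cortical astrocytes at their upper end, and this population had only 2 of 6 astrocyte markers at the minimum. A gap of 0.59 with no overlap separated stellate and basket from layer 6 neurons, at 11.83 ± 0.16. A second group of lower levels held 11.09 ± 0.22 in cerebellar mature oligodendrocytes, 10.93 ± 0.60 in layer 5b neurons, 10.77 ± 0.091 in cerebellar mixed oligodendroglia, 10.52 ± 0.019 in Cort+ neurons and 10.43 ± 0.67 in cortical mixed oligodendroglia.

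The other neurons carried less Atp1b2, with 9.89 ± 0.051 in Pnoc+, 9.68 ± 0.29 in striatal cholinergic, 9.42 ± 0.13 in Purkinje, 9.37 ± 0.94 in basal forebrain cholinergic, 9.31 ± 0.10 in Cck+ and 9.29 ± 0.42 in motor neurons. At the bottom lay 8.86 ± 0.89 in Drd1+ medium spiny neurons, 8.84 ± 0.037 in cortical mature oligodendrocytes, 8.60 ± 0.21 in Golgi and 8.34 ± 0.39 in spinal cholinergic neurons, while Drd2+ medium spiny neurons read 8.62 on all 3 arrays. All of these remain well above the expression minimum, and 19 of 23 neighbouring pairs lay within their spread. Between tissues the gene varied widely in unbound RNA, from 9.84 ± 1.91 in striatum, 10.62 ± 0.67 in cortex and 10.81 ± 0.58 in basal forebrain to 12.18 ± 0.57 in brainstem, 13.02 ± 0.24 in spinal cord and 13.61 ± 0.13 in cerebellum. Unbound cerebellum thus stood as high as cerebellar astrocytes.

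Atp1b3, another beta subunit gene, divided the populations in another way: oligodendroglia and forebrain cholinergic neurons were high. Striatal cholinergic neurons led with arrays of 13.21, 13.04 and 13.51, and basal forebrain cholinergic neurons read 12.61, 12.62 and 12.61. Between them stood mature oligodendrocytes, at 12.94, 12.64 and 13.01 in cortex and 12.63, 12.46 and 13.21 in cerebellum. Mixed oligodendroglia (12.32 ± 0.26 in cerebellum, 11.74 ± 0.042 in cortex) and layer 5a neurons (12.21 ± 0.31) came next. The astroglia sat close together in the middle, at 10.94 ± 0.14 in Bergmann glia, 10.81 ± 0.36 in cortical and 10.79 ± 0.30 in cerebellar astrocytes, and 1 cortical array at 11.36 (line JD133) lay above the other 3. The part of the myelin RNA of Bergmann glia and of the choroid plexus RNA of striatal cholinergic neurons in these levels was not tested.

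Most neurons had Atp1b3 levels like the astroglia or lower. They ran from 11.36 ± 0.12 in stellate and basket, 11.002 ± 0.064 in layer 5b, 10.88 ± 0.022 in Drd1+ and 10.78 ± 0.096 in unipolar brush neurons through 10.59 ± 0.044 in motor, 10.52 ± 0.35 in Drd2+, 10.45 ± 0.22 in layer 6, 10.32 ± 0.033 in Cort+ and 10.30 ± 0.52 in granule neurons to 9.61 ± 0.36 in spinal cholinergic, 9.50 ± 0.38 in Golgi, 9.44 ± 0.093 in Pnoc+, 9.13 ± 0.13 in Cck+ and 9.002 ± 0.23 in Purkinje neurons. The 2 cholinergic populations at the top and the spinal one near the bottom came from the same chat line. Of 23 neighbouring pairs 15 lay within their spread. Unbound RNA averaged 12.25 ± 0.019 in spinal cord, 12.13 ± 0.42 in cerebellum, 12.06 ± 0.11 in brainstem, 11.51 ± 0.14 in basal forebrain, 11.13 ± 0.73 in striatum and 10.59 ± 0.49 in cortex.

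**Figure D1:**
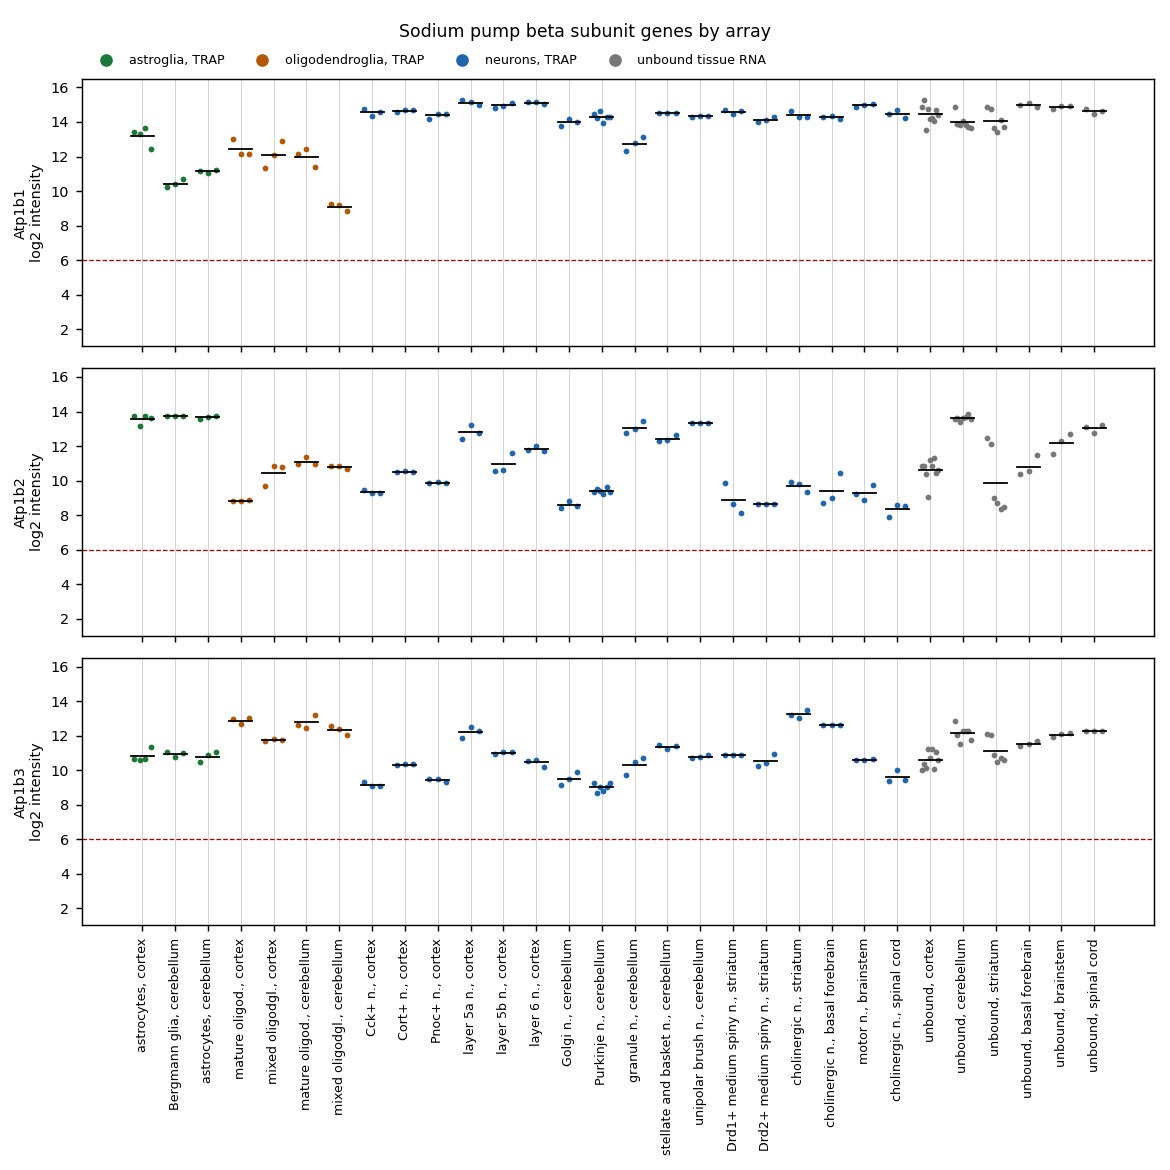
Levels of the 3 beta subunit genes on every array, as log2 intensity scaled on the biotinylated controls, by population or unbound tissue; points are arrays, bars are group means and the dashed line is the expression minimum of 6. Atp1b1 lies between 12.73 and 15.13 on average in neurons and at or below 13.19 in glia, Atp1b2 peaks in astroglia at 13.57 to 13.73, and Atp1b3 in oligodendroglia and forebrain cholinergic neurons.

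Fxyd1, or phospholemman, was highest in the astroglia and under the minimum in most neurons. Cerebellar astrocytes read 13.04, 13.37 and 13.45, Bergmann glia 13.43, 13.10 and 13.12 and cortical astrocytes 12.91, 12.67, 12.78 and 13.22. Below this group came unipolar brush neurons at 12.16 ± 0.30, then stellate and basket neurons at 9.89 ± 0.073 and layer 5a neurons at 9.88 ± 0.05. All 3 held 6 of 6 astrocyte markers, but so did layer 6, Cort+ and layer 5b neurons, whose astrocyte markers summed to more than those of stellate and basket neurons and whose Fxyd1 averaged 4.79, 6.47 and 3.78. The part of other cells' RNA in these levels, and of choroid plexus RNA in those of cerebellar astrocytes, was not tested. Oligodendroglia held 8.82 ± 0.48 in cerebellar mature oligodendrocytes, 8.20 ± 0.23 in cortical mixed, 6.23 ± 0.016 in cerebellar mixed oligodendroglia and 6.20 ± 0.13 in cortical mature oligodendrocytes. Among the other neurons only Cort+ (6.47 ± 0.16) and motor neurons (6.27 ± 0.0092) passed the minimum of 6 on average.

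Fxyd1 lay under the minimum in 12 of 17 neuron populations. The nearest were spinal and striatal cholinergic neurons at 5.81 ± 0.33 and 5.19 ± 0.36. The other 10 averaged between 2.15 and 4.79: layer 6 and 5b, Drd1+ and Drd2+, Pnoc+, granule, Purkinje, basal forebrain cholinergic, Golgi and Cck+ neurons, most with 1 value repeated on their arrays. These values carry no order, and of 23 neighbouring pairs over all populations 6 lay within their spread. Unbound RNA averaged 9.92 ± 0.23 in brainstem, 9.53 ± 0.46 in cerebellum, 9.39 ± 0.39 in spinal cord, 8.60 ± 0.49 in basal forebrain, 7.98 ± 1.504 in striatum and 6.76 ± 0.72 in cortex.

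Fxyd6, phosphohippolin, was spread over neurons and oligodendroglia and lay under the minimum in 4 populations. The highest means were 10.37 ± 0.084 in basal forebrain cholinergic, 10.37 ± 0.0073 in Pnoc+, 10.34 ± 0.58 in layer 5a, 9.99 ± 0.58 in layer 5b neurons, 9.97 ± 0.054 in cerebellar mixed oligodendroglia and 9.54 ± 0.45 in cortical mixed oligodendroglia. A middle group held 9.09 ± 0.17 in striatal cholinergic, 8.97 ± 0.58 in granule, 8.78 ± 1.14 in motor, 8.70 ± 0.69 in layer 6, 8.53 ± 0.50 in Cck+, 8.43 ± 0.28 in Golgi, 8.32 ± 0.085 in Cort+, 7.94 ± 0.11 in Drd1+ and 7.76 ± 0.23 in unipolar brush neurons, joined by cortical astrocytes with arrays of 9.45, 8.20, 8.94 and 8.83. Mature oligodendrocytes were lower, at 7.08 ± 0.49 in cerebellum and 6.77 ± 0.65 in cortex, as were spinal cholinergic (6.31 ± 0.063) and stellate and basket neurons (6.29 ± 0.17). The 4 populations under the minimum were Bergmann glia (4.68, 4.68 and 4.90), Drd2+ medium spiny neurons (3.91, 4.24 and 5.002), cerebellar astrocytes (2.42 on all 3 arrays) and Purkinje neurons (2.25 on all 6). Neighbours in the order lay within their spread in 17 of 23 pairs, and unbound RNA ran from 6.41 ± 0.88 in striatum through 8.05 ± 0.90 in spinal cord, 8.16 ± 0.73 in cerebellum, 8.43 ± 0.72 in cortex and 8.83 ± 0.35 in brainstem to 9.03 ± 0.15 in basal forebrain.

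Fxyd7 was set apart by its level in the cholinergic neurons of the hindbrain and cord. Brainstem motor neurons read 12.84, 13.46 and 13.64 and spinal cholinergic neurons 12.32, 12.95 and 12.61, and the next population, Cck+ neurons, read 11.11, 10.56 and 10.09. Cortical neurons followed, with 10.27 ± 0.31 in layer 5a, 9.59 ± 0.62 in layer 6, 8.92 ± 0.23 in layer 5b and 7.999 ± 0.16 in Cort+ neurons, while Pnoc+ neurons read 8.44 on all 3 arrays. A broad middle group held 8.43 ± 0.88 in Drd1+, 8.12 ± 0.25 in unipolar brush, 7.87 ± 0.34 in Purkinje and 7.51 ± 0.33 in granule neurons and, among glia, 8.36 ± 0.52 in Bergmann glia and 8.20 ± 0.06 in cerebellar astrocytes. Cortical mature oligodendrocytes (6.58 ± 0.57), cortical mixed oligodendroglia (6.21 ± 0.75) and the forebrain cholinergic neurons (6.16 ± 0.50 in basal forebrain, 6.06 ± 0.18 in striatum) stood near the minimum. Below it lay cortical astrocytes (5.61, 5.42, 5.51 and 6.36), stellate and basket neurons (4.12, 4.12 and 6.15), oligodendroglia of the cerebellum (4.17 and 4.37 on average), Drd2+ neurons (4.30, 3.15 and 3.15) and Golgi neurons (2.21 on all 3 arrays). Of 23 neighbouring pairs 15 lay within their spread, and unbound RNA averaged 8.95 ± 0.45 in spinal cord, 8.75 ± 0.26 in brainstem, 8.01 ± 0.93 in cortex, 6.78 ± 0.26 in cerebellum, 6.43 ± 0.74 in basal forebrain and 6.003 ± 1.26 in striatum.

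**Figure D2:**
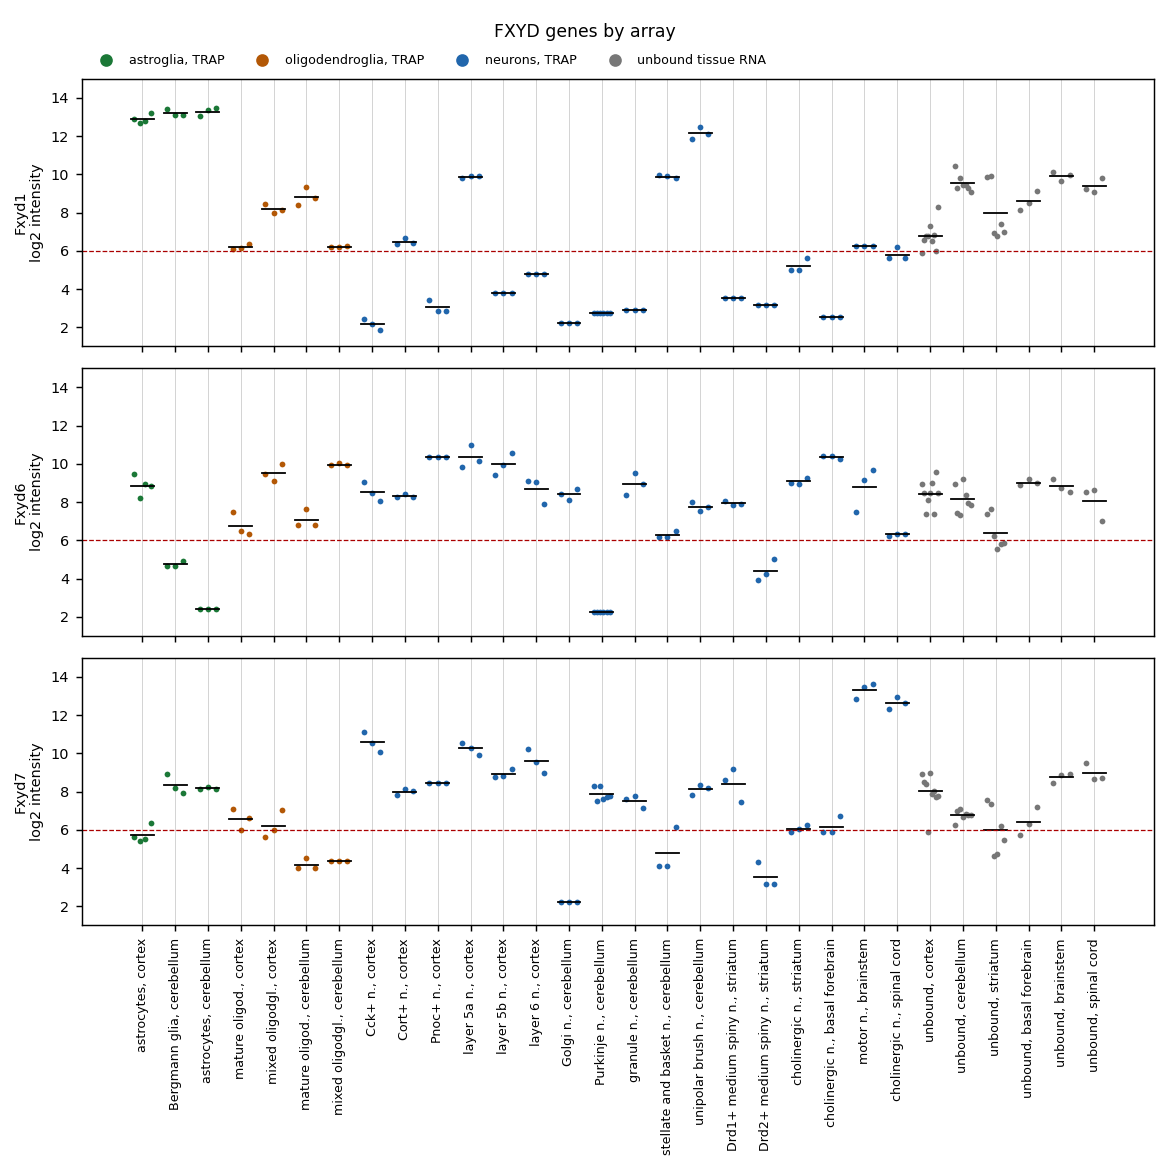
Levels of the 3 FXYD genes on every array, drawn as for the beta subunits, with log2 intensity on the vertical axis, points for arrays, bars for group means and a dashed line at the expression minimum of 6. Fxyd1 stands at 12.90 to 13.29 in astroglia and under 6 in 12 of 17 neuron populations, and Fxyd7 is highest in motor neurons (13.31) and spinal cholinergic neurons (12.63).

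Astroglia were compared with the mean of the neuron populations of the same tissue, each population weighted equally. A difference counts as called when limma's adjusted p lies under 0.05 and the difference reaches 2-fold. Whether arrays overlapped is given as a description, since the share over all genes was not counted. All differences that follow are on the log2 scale, first group minus second, and a fold written "at least" sets populations under the minimum to 6 on the lower side only. A difference with a mean under the minimum rests in part on background values, so its size is known only as that bound, and calls that miss 2-fold when every mean under 6 is set to 6 are named. Cortical astrocytes had more Fxyd1 and Atp1b2 and less Atp1b1 and Fxyd7 than the 6 cortical neuron populations. The Fxyd1 difference was 7.88 ± 0.27 (SE, adjusted p = 7.05e-44), at least 72-fold, and no array overlapped. For Atp1b2 it was 2.69 ± 0.34 (SE, adjusted p = 1.38e-11), 6.45-fold, though a layer 5a array of 13.20 reached above the lowest astrocyte array of 13.17. Atp1b1 was lower by 3.05-fold, with -1.61 ± 0.19 (SE, adjusted p = 2.08e-12) and no overlap, and Fxyd7 by at least 9.86-fold, with -3.58 ± 0.33 (SE, adjusted p = 3.67e-17). Atp1b3 differed by 0.39 ± 0.19 (SE, adjusted p = 0.0465), short of 2-fold, and Fxyd6 by -0.52 ± 0.29 (SE, adjusted p = 0.0925). Of 11193 genes tested here, 25.9% were called higher and 36.5% lower, beside 2 and 2 of the 6.

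In the cerebellum the astroglia again had more Atp1b2 and Fxyd1 and less Atp1b1 than the 5 neuron populations, and Fxyd7 lay on the other side. Cerebellar astrocytes exceeded neurons in Fxyd1 by 7.31 ± 0.31 (SE, adjusted p = 2.68e-37), at least 38.8-fold, and in Atp1b2 by 2.30 ± 0.38 (SE, adjusted p = 9.82e-08), 4.93-fold. Atp1b1 was 7.14-fold lower, with -2.84 ± 0.22 (SE, adjusted p = 3.85e-21), and none of these 3 sets of arrays overlapped. Fxyd7 was higher by 2.10 ± 0.37 (SE, adjusted p = 5.58e-07), at least 2.14-fold, and Fxyd6 was lower by at least 1.67-fold, with -4.32 ± 0.33 (SE, adjusted p = 5.87e-21). Atp1b3 differed by 0.60 ± 0.21 (SE, adjusted p = 0.00851) and was not called. Bergmann glia, the radial astroglia that wrap Purkinje cells, gave the same 5 calls: Atp1b1 -3.55 ± 0.22 (SE, adjusted p = 8.20e-27) and 11.7-fold lower, Atp1b2 2.36 ± 0.38 (SE, adjusted p = 5.34e-08), Fxyd1 7.23 ± 0.31 (SE, adjusted p = 5.38e-37), Fxyd7 2.26 ± 0.37 (SE, adjusted p = 1.00e-07) and Fxyd6 -1.98 ± 0.33 (SE, adjusted p = 1.37e-07). For Fxyd6 and Fxyd7 the arrays of both astroglial populations overlapped the range of the neuron arrays. Among 10716 genes, 25.1% were called higher and 27.4% lower in cerebellar astrocytes, and 32.1% and 19.2% of 10723 in Bergmann glia (22.5% and 24.3% with quantile normalization), beside 3 and 2 members each time. Without unipolar brush and stellate and basket neurons Atp1b3 was called too, at 1.18 and 1.33.

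The astrocyte-to-neuron contrasts of 3 members differed between cortex and cerebellum by a test of the difference itself. For Fxyd7 the cortical contrast minus the cerebellar one was -5.67 ± 0.50 (SE, adjusted p = 1.32e-17), or -4.40 with means under 6 set to 6. Its direction against the mean of the neuron populations thus turned between the tissues. In cerebellum, however, Golgi and stellate and basket neurons lay under the minimum, and the astrocyte mean was only 0.077 above that of unipolar brush neurons. For Atp1b1 it was 1.23 ± 0.29 (SE, adjusted p = 0.000127). For Fxyd6 the fit gave 3.80 ± 0.45 (SE, adjusted p = 2.86e-12), but cerebellar astrocytes and Purkinje neurons lay under the minimum, and with means under 6 set to 6 the difference was 0.97, short of 2-fold. Atp1b2 (0.39 ± 0.51 SE, adjusted p = 0.507), Atp1b3 (-0.21 ± 0.28 SE, adjusted p = 0.52) and Fxyd1 (0.57 ± 0.41 SE, adjusted p = 0.216) did not pass that test.

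Mature oligodendrocytes, the myelin-forming cells, had more Atp1b3 and less Atp1b1 than the neurons of both tissues. In cortex Atp1b3 was higher by 2.44 ± 0.21 (SE, adjusted p = 3.47e-18), 5.42-fold, and in cerebellum by 2.58 ± 0.21 (SE, adjusted p = 3.00e-19), 5.98-fold, with no overlapping array. Atp1b1 was lower by 5.09-fold in cortex, -2.35 ± 0.22 (SE, adjusted p = 7.44e-17), and by 3.95-fold in cerebellum, -1.98 ± 0.22 (SE, adjusted p = 1.86e-13), where the granule arrays overlapped. Cortical oligodendrocytes were also lower in Atp1b2 (-2.04 ± 0.38 SE, adjusted p = 1.45e-06, 4.12-fold), Fxyd6 (-2.60 ± 0.33 SE, adjusted p = 4.00e-11, 6.08-fold) and Fxyd7 (-2.72 ± 0.37 SE, adjusted p = 4.24e-10, 6.61-fold). Fxyd1 passed the test at 1.18 ± 0.31 (SE, adjusted p = 0.000406) with both sides near or under the minimum, so no fold is given, and it turned to -0.53 with means under 6 set to 6. In cerebellum Fxyd1 was higher (2.84 ± 0.31 SE, adjusted p = 1.57e-13, at least 1.76-fold, 0.81 with means under 6 set to 6) and Fxyd7 lower (-1.93 ± 0.37 SE, adjusted p = 4.02e-06, at least 1.07-fold), while Atp1b2 (-0.28 ± 0.38 SE, adjusted p = 0.506) and Fxyd6 (0.34 ± 0.33 SE, adjusted p = 0.356) were not called.

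Among 11028 genes, 11.9% were called higher and 38.8% lower in cortical oligodendrocytes, beside 2 and 4 members; with quantile normalization the split was 20.2% and 22.4%. In cerebellum it was 24% and 17.4% of 10706, beside 2 and 2 (20.6% and 23.1% without further scaling, 19% and 22.5% with quantile normalization). The oligodendrocyte contrast with neurons, cortex minus cerebellum, was for Atp1b2 -1.76 ± 0.54 (SE, adjusted p = 0.00339), for Fxyd1 -1.66 ± 0.44 (SE, adjusted p = 0.000649) and for Fxyd6 -2.95 ± 0.47 (SE, adjusted p = 7.42e-08). In Fxyd1 the oligodendrocytes of neither tissue exceeded its unbound RNA, with -0.56 in cortex and -0.71 in cerebellum.

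Set directly against mature oligodendrocytes, astrocytes had more Atp1b2 and Fxyd1 and less Atp1b3. In cortex Fxyd1 was 104-fold higher, 6.70 ± 0.38 (SE, adjusted p = 3.08e-29), and Atp1b2 26.5-fold higher, 4.73 ± 0.46 (SE, adjusted p = 9.48e-16). In cerebellum the same genes were 22.1-fold higher, 4.46 ± 0.40 (SE, adjusted p = 2.53e-17), and 6.01-fold higher, 2.59 ± 0.50 (SE, adjusted p = 3.17e-06). Atp1b3 was lower in astrocytes by 4.14-fold in cortex, -2.05 ± 0.26 (SE, adjusted p = 2.33e-11), and by 3.95-fold in cerebellum, -1.98 ± 0.28 (SE, adjusted p = 7.96e-10). No arrays overlapped in these contrasts, which is a description only. Fxyd6 was higher in astrocytes of the cortex (2.09 ± 0.40 SE, adjusted p = 3.35e-06) and lower in those of the cerebellum (-4.66 ± 0.43 SE, adjusted p = 9.83e-17), where Fxyd7 was higher (4.03 ± 0.49 SE, adjusted p = 6.54e-12). Atp1b1 was not called in cortex (0.74 ± 0.26 SE, adjusted p = 0.00909) or cerebellum (-0.85 ± 0.28 SE, adjusted p = 0.00543), nor was Fxyd7 in cortex (-0.85 ± 0.45 SE, adjusted p = 0.0823). Of 9779 genes in cortex 33.4% were called higher and 21.6% lower in astrocytes (25.1% and 27% with quantile normalization), and of 9897 in cerebellum 24.5% and 27.5%. With quantile normalization and with the mean of all probe sets Atp1b1 was called in cerebellum, at -1.05 under both. Leaving out single arrays added calls: Atp1b1 reached 1.03 in cortex without the first mature oligodendrocyte array and -1.15 in cerebellum without the third, and Fxyd7 in cortex was called without the fourth astrocyte or the second oligodendrocyte array, at up to -1.15.

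**Figure D3:**
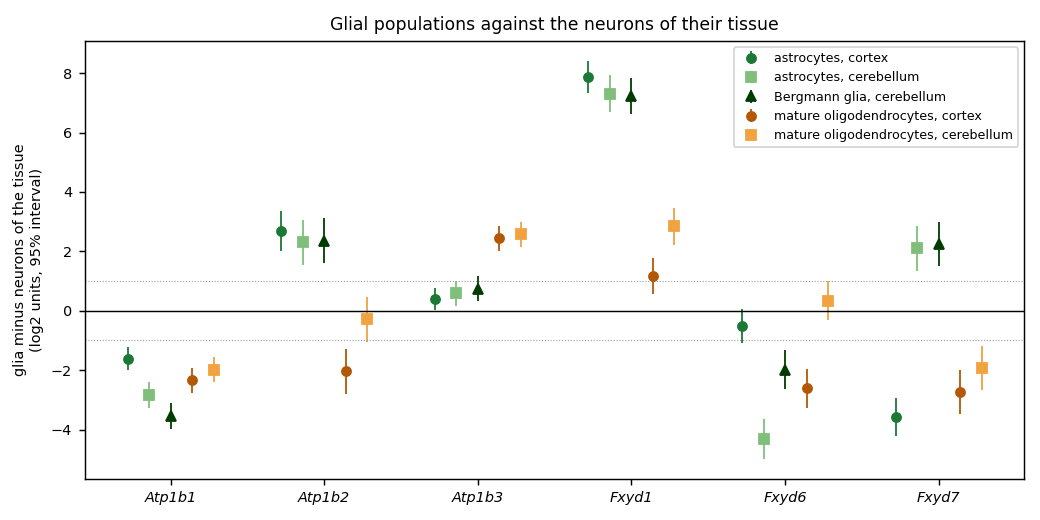
Log2 differences of glial populations minus the mean of the neuron populations of the same tissue for the 6 genes; points are limma estimates, bars are 95% confidence intervals and the dotted lines mark 2-fold. Fxyd1 and Atp1b2 lie above 0 and Atp1b1 below 0 in the 3 astroglial populations, Atp1b3 is highest in mature oligodendrocytes, and Fxyd7 lies below 0 in cortical and above 0 in cerebellar astroglia.

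The balance of beta subunit genes was read within each array, as the log2 difference of 2 probe sets, which no shift between groups can change. Only its change between populations is meaningful, and values are given relative to the mean of the 24 populations. The balance of Atp1b2 to Atp1b1 was 6.12 ± 0.23 in Bergmann glia, 5.34 ± 0.13 in cerebellar and 3.19 ± 0.58 in cortical astrocytes. Against all neuron arrays of the same tissue, 6 of the 18 cerebellar ones being of Purkinje neurons, it was 78.3-fold, 45.9-fold and 19.6-fold higher, with log2 differences of 6.29, 5.52 and 4.30 and no overlap (exact permutation test over arrays, two-sided, adjusted p = 0.00107 for each of these 3, over 10 such tests). The raw p was 0.000137 with 4 against 18 arrays and 0.000752 with 3 against 18, the smallest these arrangements allow. The test shuffles arrays as if they were independent, though the arrays of a population lie close together. Its p therefore does not take populations as the units. With neuron populations weighted equally the cerebellar differences were 5.91 (60.1-fold) in Bergmann glia and 5.14 (35.2-fold) in astrocytes. Cerebellar mixed oligodendroglia, at 4.49 ± 0.11, stood above every cortical astrocyte array. Granule neurons, at 3.14 ± 0.12, stood inside the range of cortical astrocytes, and cerebellar mature oligodendrocytes (1.90 ± 0.38) and unipolar brush neurons (1.85 ± 0.025) followed. Mature oligodendrocytes did not pass, with 0.31 in cortex (exact permutation p = 0.623) and 2.08 in cerebellum (exact permutation p = 0.144, adjusted 0.16). Without the 2 cerebellar neuron populations that held 6 of 6 astrocyte markers (unipolar brush, stellate and basket) the latter was 2.80 (exact permutation test, adjusted p = 0.0488).

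The balance of Atp1b3 to Atp1b1 moved toward Atp1b3 in all 5 glial sets tested. It was 28.2-fold higher than in neurons in cerebellar and 27.6-fold in cortical mature oligodendrocytes, with differences of 4.82 and 4.79; with neuron populations weighted equally the cerebellar value was 4.56 (23.6-fold). In Bergmann glia it was 23.4-fold higher and in cerebellar astrocytes 12.9-fold, with no overlap in these 4 (exact permutation test, adjusted p = 0.00107 each). Cortical astrocytes overlapped with neurons at 3.99-fold (exact permutation test, adjusted p = 0.00171). In the astroglial sets Atp1b3 itself was not called against the mean of all neuron populations of the tissue, while Atp1b1 was called lower. In mature oligodendrocytes Atp1b3 was called higher and Atp1b1 lower. The highest balance belonged to cerebellar mixed oligodendroglia at 5.84 ± 0.072, and the highest among neurons to striatal cholinergic neurons at 1.47 ± 0.34.

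**Figure D4:**
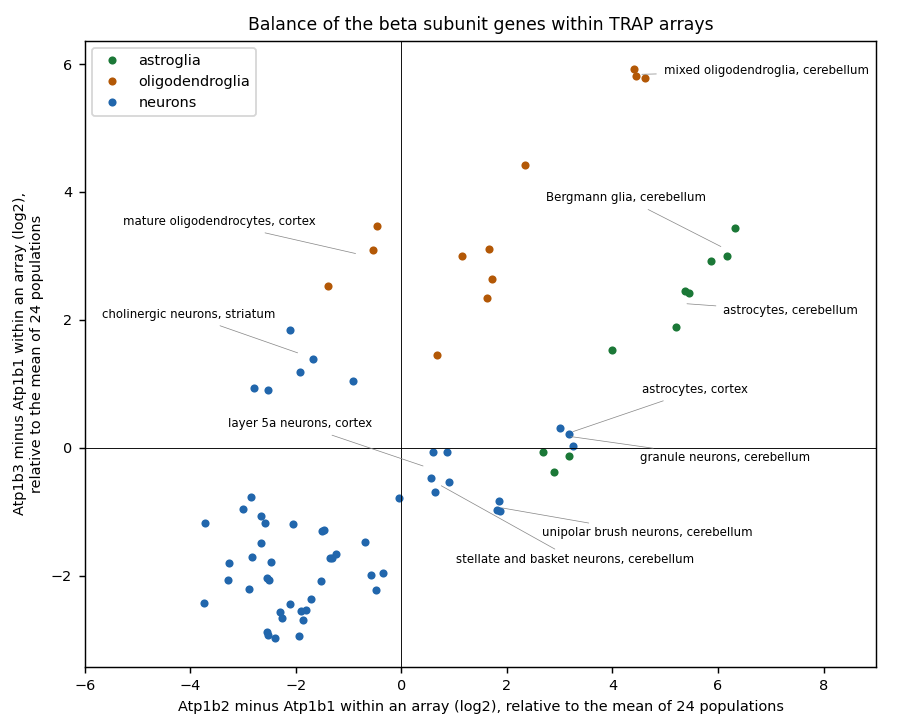
Balance of the beta subunit genes within each TRAP array, as Atp1b2 minus Atp1b1 (horizontal) against Atp1b3 minus Atp1b1 (vertical), both log2 and relative to the mean of 24 populations; each point is 1 array, coloured by class. All astroglial arrays lie at 2.69 or more on the horizontal axis, as do the granule arrays (3.01 to 3.24) and those of cerebellar mixed oligodendroglia (4.41 to 4.61). All oligodendroglial arrays lie at 1.46 or more on the vertical axis, and most neurons at the lower left.

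Within the astroglia, Bergmann glia and cerebellar astrocytes gave no call for a beta subunit or FXYD gene. None of the 5 members tested was called by limma (1 had an unadjusted p under 0.05), while 16.8% of 9262 genes were called higher and 3.72% lower in Bergmann glia (6.32% and 6.7% with quantile normalization). The intervals were wide: -0.93 to 1.05 for Atp1b2, -0.40 to 0.70 for Atp1b3, -0.87 to 0.73 for Fxyd1 and -0.81 to 1.13 for Fxyd7 (95% confidence). Atp1b1 was -0.71 ± 0.28 (SE, adjusted p = 0.0335) with no overlapping array, and passed 2-fold at -1.05 with quantile normalization. Fxyd6 lay under the minimum in both. Cortical astrocytes, against cerebellar ones, had more Atp1b1 (2.05 ± 0.26 SE, adjusted p = 1.38e-10, 4.14-fold) and Fxyd6 (6.44 ± 0.40 SE, adjusted p = 1.23e-25, at least 7.24-fold) and less Fxyd7 (-2.47 ± 0.45 SE, adjusted p = 2.43e-06, at least 4.59-fold), with no overlap. Atp1b2 (-0.10 ± 0.46 SE, adjusted p = 0.864), Atp1b3 (0.029 ± 0.26 SE, adjusted p = 0.93) and Fxyd1 (-0.39 ± 0.38 SE, adjusted p = 0.389) were not called. The background was 16.6% higher and 14% lower of 9255. When each population was first set against its own tissue, Atp1b2, Atp1b3 and Fxyd1 were called higher in cortical astrocytes, at 2.89, 1.57 and 2.38.

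Oligodendroglia varied more. Mixed oligodendroglia of the olig2 line, with a summed level of the 3 progenitor markers of 14.71 to 14.84 in cortex against 10.89 to 10.93 in mature oligodendrocytes, had more Fxyd6 than mature oligodendrocytes in cortex (2.77 ± 0.43 SE, adjusted p = 3.40e-08, 6.83-fold) and cerebellum (2.89 ± 0.43 SE, adjusted p = 1.27e-08, 7.4-fold). Fxyd1 was 4-fold higher in the mixed population of cortex, 1.999 ± 0.40 (SE, adjusted p = 9.92e-06), and 6.06-fold lower in that of cerebellum, -2.60 ± 0.40 (SE, adjusted p = 3.15e-08). In cortex the mixed cells also had more Atp1b2 (1.59 ± 0.49 SE, adjusted p = 0.00343) and less Atp1b3 (-1.12 ± 0.28 SE, adjusted p = 0.000246), and in cerebellum less Atp1b1 (-2.90 ± 0.28 SE, adjusted p = 1.70e-15, 7.45-fold). No arrays overlapped in these calls, which is a description only. The Atp1b2 call ended with quantile normalization (0.999) and with the mean of both probe sets (0.61). In cortex 35.2% of 9746 genes were called higher and 9.72% lower in the mixed cells (19.8% and 20.3% with quantile normalization), beside 3 and 1 members. In cerebellum it was 26.4% and 12.9% of 9931 (48.4% and 7.71% without further scaling, 20.1% and 17.6% with quantile normalization), beside 1 and 2 of 5.

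Cortical mature oligodendrocytes had less Atp1b2 (-2.25 ± 0.49 SE, adjusted p = 8.57e-05, 4.75-fold) and Fxyd1 (-2.63 ± 0.40 SE, adjusted p = 3.94e-08, 6.17-fold) and more Fxyd7 (2.41 ± 0.48 SE, adjusted p = 1.87e-05, at least 1.49-fold) than cerebellar ones. The arrays did not overlap in any of these, though Fxyd7 was under 2-fold, at 0.58, with means under 6 set to 6. All 3 genes, on the higher side, lay below the unbound RNA of the tissue, at -2.53, -0.71 and -1.43, and relative to that RNA the differences of Atp1b2 and Fxyd1 turned to 0.74 and 0.14, the Fxyd7 call was lost at 1.18 and Atp1b3 was called at 1.63. Atp1b1 (0.46 ± 0.28 SE, adjusted p = 0.169), Atp1b3 (0.096 ± 0.28 SE, adjusted p = 0.789) and Fxyd6 (-0.31 ± 0.43 SE, adjusted p = 0.566) were not called. Over 9534 genes 8.61% were called higher and 19.3% lower, or 11.4% and 14.7% without further scaling and 16% and 11.9% with quantile normalization.

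Among cerebellar neurons, Purkinje and granule neurons each gave 5 calls against the others. Purkinje neurons had less Fxyd6 (-5.61 ± 0.27 SE, adjusted p = 3.17e-34, at least 3.63-fold), Fxyd1 (-4.06 ± 0.25 SE, adjusted p = 4.42e-27, at least 1.73-fold), Atp1b2 (-2.44 ± 0.30 SE, adjusted p = 1.48e-11, 5.44-fold) and Atp1b3 (-1.48 ± 0.17 SE, adjusted p = 4.48e-13, 2.8-fold) than the mean of the 4 other neuron types, and more Fxyd7 (2.21 ± 0.30 SE, adjusted p = 2.35e-10, at least 1.94-fold). Only for Fxyd6 did no array overlap. The Fxyd1 difference came from unipolar brush and stellate and basket neurons, since granule and Golgi neurons lay under the minimum like Purkinje neurons, and without those 2 populations no mean was left above it to test; the same holds for the Fxyd1 call of granule neurons. In Fxyd6, Atp1b2 and Atp1b3 the other neurons were themselves on average below unbound cerebellum, at -0.30, -1.75 and -1.64. Without unipolar brush and stellate and basket neurons Atp1b3 was -0.90 and not called. Granule neurons had more Fxyd6 (2.78 ± 0.34 SE, adjusted p = 8.40e-12, at least 3.6-fold), Atp1b2 (2.12 ± 0.39 SE, adjusted p = 1.15e-06, 4.34-fold) and Fxyd7 (1.76 ± 0.38 SE, adjusted p = 2.66e-05, at least 1.43-fold) and less Atp1b1 (-1.56 ± 0.22 SE, adjusted p = 1.41e-09, 2.94-fold) and Fxyd1 (-3.84 ± 0.31 SE, adjusted p = 2.31e-19, at least 1.68-fold). With means under 6 set to 6, Fxyd7 was 0.96 in Purkinje and 0.51 in granule neurons, both under 2-fold. The Atp1b2 of granule neurons stood at -0.55 relative to unbound cerebellum. The backgrounds were 19.6% higher and 28% lower of 10387 genes for Purkinje neurons and 27.9% and 19.8% for granule neurons (18.3% and 21.9% with quantile normalization). Both comparisons use the same 5 populations and are not independent. Atp1b1 was not called for Purkinje neurons (0.42 ± 0.17 SE, adjusted p = 0.0233), nor Atp1b3 for granule neurons (0.14 ± 0.21 SE, adjusted p = 0.56), which was called at 1.05 against Purkinje and Golgi neurons alone.

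The cholinergic populations, all from 1 line, differed between hindbrain or cord and forebrain. Motor and spinal cholinergic neurons had 116-fold more Fxyd7 than those of striatum and basal forebrain, 6.86 ± 0.34 (SE, adjusted p = 3.08e-32), with no overlap between 6 and 6 arrays. Both forebrain means stood just above the minimum of 6, so the size of this fold rests in part on values near background. The hindbrain and cord neurons also differed in other members. They had 7.13-fold less Atp1b3 than the forebrain ones, -2.83 ± 0.19 (SE, adjusted p = 1.32e-23), also without overlap, and less Fxyd6, -2.19 ± 0.31 (SE, adjusted p = 1.17e-09), with overlap. Fxyd1 was called at 2.17 ± 0.28 (SE, adjusted p = 1.38e-10), at least 1.03-fold, at levels around the minimum and below the unbound RNA of brainstem and cord, and was 0.14 with means under 6 set to 6. Atp1b1 (0.38 ± 0.20 SE, adjusted p = 0.0822) and Atp1b2 (-0.71 ± 0.35 SE, adjusted p = 0.0631) were not called. Beside these 2 and 2 members, 14.6% of 9643 genes were called higher and 23.4% lower (17.2% and 17.9% with quantile normalization).

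In the striatum the 2 classes of medium spiny neuron, the projection neurons of the direct (Drd1+) and indirect (Drd2+) pathways, gave 2 calls, both FXYD genes. Fxyd7 read 8.60, 9.21 and 7.47 in Drd1+ and 4.30, 3.15 and 3.15 in Drd2+ neurons, at least 5.37-fold higher, 4.89 ± 0.48 (SE, adjusted p = 3.56e-14). Fxyd6 read 8.07, 7.87 and 7.89 against 3.91, 4.24 and 5.002, at least 3.85-fold higher, 3.56 ± 0.43 (SE, adjusted p = 1.10e-10). The arrays did not overlap for either gene, and both Drd2+ means are under the minimum. Over 9520 genes only 7.52% were called higher and 0.935% lower (2.17% and 1.43% without further scaling, 2.63% and 1.86% with quantile normalization). For the beta subunits the intervals were -0.10 to 1.02 for Atp1b1, -0.74 to 1.22 for Atp1b2 and -0.19 to 0.90 for Atp1b3 (95% confidence). Taken as 1 group, medium spiny neurons had 5.87-fold less Atp1b3 than striatal cholinergic neurons, -2.55 ± 0.24 (SE, adjusted p = 9.51e-17), and less Fxyd6, -2.92 ± 0.37 (SE, adjusted p = 4.00e-11), at least 4.34-fold, both without overlap. Atp1b2 (-0.94 ± 0.43 SE, adjusted p = 0.0394) fell short of 2-fold, and was called without further scaling (-1.71), with quantile normalization (-1.45) and without the third cholinergic or the first Drd1+ array (up to -1.18). Atp1b1 (-0.03 ± 0.24 SE, adjusted p = 0.914) and Fxyd7 (-0.082 ± 0.42 SE, adjusted p = 0.861) were not called, Fxyd7 being called with quantile normalization at -1.003. The background was 39.8% higher and 19.2% lower of 10098 genes, 28.7% and 26% with quantile normalization and 23.9% and 34.2% without further scaling.

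Cort+ and Pnoc+ neurons of the cortex were compared with deep-layer neurons, averaged over layers 5a, 5b and 6. Cort+ neurons had less Fxyd7 (-1.59 ± 0.40 SE, adjusted p = 0.000279, 3.02-fold), Fxyd6 (-1.36 ± 0.35 SE, adjusted p = 0.000495) and Atp1b2 (-1.33 ± 0.41 SE, adjusted p = 0.00273), with overlapping arrays for the last 2. Without layer 5a the Atp1b2 call was lost, at -0.86, and Fxyd1 was called higher, at 2.19. In Fxyd1 layers 5b and 6 lay under the minimum and Cort+ neurons just above it. The size of that gain therefore rests on background values, and no fold is given. Quantile normalization ended the calls of Atp1b2 (-0.85) and Fxyd6 (-0.79). The background of this comparison leaned the same way, with 5.03% of 10778 genes called higher and 34.8% lower and a median difference over all genes of -0.66 (13.2%, 15.1% and -0.056 with quantile normalization). In Pnoc+ neurons Fxyd1 (-3.10 ± 0.33 SE, adjusted p = 1.48e-14), Atp1b2 (-1.97 ± 0.41 SE, adjusted p = 6.89e-06), Atp1b3 (-1.78 ± 0.22 SE, adjusted p = 1.51e-11) and Fxyd7 (-1.15 ± 0.40 SE, adjusted p = 0.00529) were called lower. Here 81.1% of 10698 genes were lower and 1.43% higher, with a median of -2.12 over all genes, so 4 of 6 lower members are no more than the background. With quantile normalization (26.3% lower, 19.9% higher, median -0.11) Atp1b3 was 0.11 and Fxyd7 0.94, both turned in direction, Atp1b2 was -0.16 and not called, and Fxyd6 was called higher at 2.69. Before that normalization Fxyd6 was 0.69 ± 0.35 (SE, adjusted p = 0.0578) and not called. Without layer 5a it was called at 1.02, and the Fxyd7 call was lost at -0.82. Fxyd1 then had no mean above the minimum left to test, since Pnoc+ neurons and layers 5b and 6 all lay under it. The Fxyd1 call of Pnoc+ neurons thus rested on layer 5a, and its size rests in part on background values. Atp1b1 was not called for Cort+ (-0.44 ± 0.23 SE, adjusted p = 0.0856) or Pnoc+ neurons (-0.69 ± 0.23 SE, adjusted p = 0.00402).

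TRAP RNA was then set against the unbound RNA of the same tissue, which asks whether a population carries more of a gene than its surroundings. Unbound arrays were pooled over all lines of a tissue. Cort+ neurons, cerebellar astrocytes, cerebellar mixed oligodendroglia and all cerebellar neurons but Purkinje neurons had none from their own line and tissue. These populations were compared with other lines only. In unbound cortex the balance of Atp1b2 to Atp1b1 ran from -2.88 (cmtm5 line) to 0.10 (ntsr1 line). Own-line arrays alone were tried only in the striatum. Of 144 pairs of a member and a population, 32 were called higher and 59 lower. Over all genes, 18.4% of 240908 such pairs were called higher and 32.4% lower. Atp1b1 was called higher by limma in 0 of 24 populations, with 5 higher at an unadjusted p under 0.05. It was lower in all 7 glial populations, from -1.25 ± 0.21 (SE, adjusted p = 6.97e-08) in cortical astrocytes to -4.88 ± 0.24 (SE, adjusted p = 3.61e-33) in cerebellar mixed oligodendroglia, and in 1 of 17 neuron populations, granule neurons, with -1.24 ± 0.24 (SE, adjusted p = 3.36e-06) (-0.80 and not called without further scaling). For Atp1b2 the call among astroglia was that of cortical astrocytes, 2.95 ± 0.36 (SE, adjusted p = 8.28e-12), 7.72-fold. Cerebellar astrocytes (0.061 ± 0.42 SE, adjusted p = 0.894) and Bergmann glia (0.12 ± 0.42 SE, adjusted p = 0.798) stood level with unbound cerebellum, which was itself rich in the gene. Layer 5a (2.17 ± 0.40 SE, adjusted p = 1.25e-06) and layer 6 neurons (1.21 ± 0.40 SE, adjusted p = 0.00653) were higher, the latter not under other scalings (0.99 and 0.70). Among 8 neuron populations called lower were Golgi (-5.02 ± 0.42 SE, adjusted p = 1.94e-19), spinal cholinergic (-4.68 ± 0.50 SE, adjusted p = 3.47e-14), Purkinje (-4.20 ± 0.34 SE, adjusted p = 3.01e-20) and motor neurons (-2.89 ± 0.50 SE, adjusted p = 3.95e-07).

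Atp1b3 exceeded tissue RNA in 5 populations: cortical mature oligodendrocytes (2.27 ± 0.22 SE, adjusted p = 2.31e-15, 4.83-fold), cortical mixed oligodendroglia (1.15 ± 0.22 SE, adjusted p = 3.81e-06), striatal (2.12 ± 0.24 SE, adjusted p = 3.58e-13) and basal forebrain cholinergic neurons (1.11 ± 0.28 SE, adjusted p = 0.000268) and layer 5a neurons (1.62 ± 0.22 SE, adjusted p = 5.19e-10). It was lower in 8 neuron populations, Purkinje (-3.13 ± 0.19 SE, adjusted p = 9.15e-28) and spinal cholinergic neurons (-2.64 ± 0.28 SE, adjusted p = 1.85e-14) the most, and in both astroglial populations of the cerebellum, whose calls ended without further scaling (-0.94 in astrocytes, -0.57 in Bergmann glia) and with quantile normalization (-0.76 and -0.9995). Quantile normalization also ended those of layer 5a neurons (0.62) and cortical mixed oligodendroglia (0.97). Fxyd1 was higher in all 3 astroglial populations, 70.2-fold in cortex (6.13 ± 0.30 SE, adjusted p = 6.30e-34), 13.5-fold in cerebellar astrocytes (3.76 ± 0.34 SE, adjusted p = 1.69e-17) and 12.8-fold in Bergmann glia (3.68 ± 0.34 SE, adjusted p = 5.74e-17). It was also higher in layer 5a (3.12 ± 0.33 SE, adjusted p = 2.22e-14) and unipolar brush neurons (2.63 ± 0.34 SE, adjusted p = 7.66e-11) and in cortical mixed oligodendroglia (1.43 ± 0.33 SE, adjusted p = 6.36e-05). In 13 of 17 neuron populations it was lower.

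Fxyd6 was higher in 6 and lower in 4 neuron populations. The gains were in striatal (2.68 ± 0.37 SE, adjusted p = 8.23e-10) and basal forebrain cholinergic (1.34 ± 0.43 SE, adjusted p = 0.00441), Pnoc+ (1.94 ± 0.35 SE, adjusted p = 6.75e-07), layer 5a (1.92 ± 0.35 SE, adjusted p = 9.88e-07), layer 5b (1.56 ± 0.35 SE, adjusted p = 6.57e-05) and Drd1+ neurons (1.53 ± 0.37 SE, adjusted p = 0.000219). It was higher in both mixed and lower in both mature oligodendroglial populations, although the call in the mixed cells of cortex ended when the third of their arrays was left out (0.88) and that in the mature cells of cerebellum without replicate 1 or replicate 3 (up to -0.93). Quantile normalization ended these as well (0.97 and -0.16), with those of layer 5a (0.76) and 5b neurons (0.97), and without further scaling the Drd1+ value was 0.27 and not called. Purkinje neurons, cerebellar astrocytes and Bergmann glia, all called, lay under the minimum and so at least 4.48-fold below unbound cerebellum. Fxyd7 was highest over tissue RNA in motor neurons (4.57 ± 0.49 SE, adjusted p = 7.65e-14, 23.7-fold) and spinal cholinergic neurons (3.68 ± 0.49 SE, adjusted p = 1.41e-10, 12.8-fold). Of 17 neuron populations 8 were higher, Cck+ (2.58 ± 0.40 SE, adjusted p = 2.13e-08) and Drd1+ neurons (2.42 ± 0.42 SE, adjusted p = 4.94e-07) among them, and 3 lower. All 4 oligodendroglial populations were lower. With means under 6 set to 6, 10 of the 91 calls were under 2-fold, all of them calls of lower levels. They were Fxyd1 in Cck+, Pnoc+, layer 5b and layer 6 neurons, Fxyd6 in Drd2+ neurons, and Fxyd7 in Drd2+, Golgi and stellate and basket neurons and both cerebellar oligodendroglial populations.

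Layer 5a neurons had 5 of 6 members above unbound cortex, where 60.7% of 10541 genes were called higher and 2.31% lower, so that count says little about the members. The same population held 5 of 5 macrophage and microglia markers at the minimum and 6 of 6 astrocyte markers, and their part in these values was not tested. Cort+ neurons had none of the 6 called by limma in either direction, or at an unadjusted p under 0.05. Of 9553 genes tested there, 1229 were called higher and 426 lower, so this count too says little about the members. In the striatum the choice of unbound arrays mattered. With those of the chat line alone, striatal cholinergic neurons were called lower in Atp1b2 at -2.59 (against -0.15 pooled) and in Fxyd7 at -1.40 (against 0.059), while Atp1b3 kept its call at 1.20. With the drd1 line alone, Drd1+ neurons were called higher in Atp1b1 at 1.08, and Fxyd7 and Fxyd6 kept their calls at 3.73 and 2.06. Scaling bears on that Atp1b1 call, as the shift of Drd1+ neurons, 1.29, was the largest of any group. Against the pooled arrays Atp1b1 was 0.51, and -0.75 without further scaling, called in neither. With the drd2 line alone, the Atp1b2 call of Drd2+ neurons (-1.22 ± 0.43 SE, adjusted p = 0.0115 pooled) was lost at 0.24. The Drd2+ decreases of Fxyd6 (-2.03) and Fxyd7 (-2.47) rest on the pooled arrays, since the drd2 line's unbound RNA was itself under the minimum on average.

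**Figure D5:**
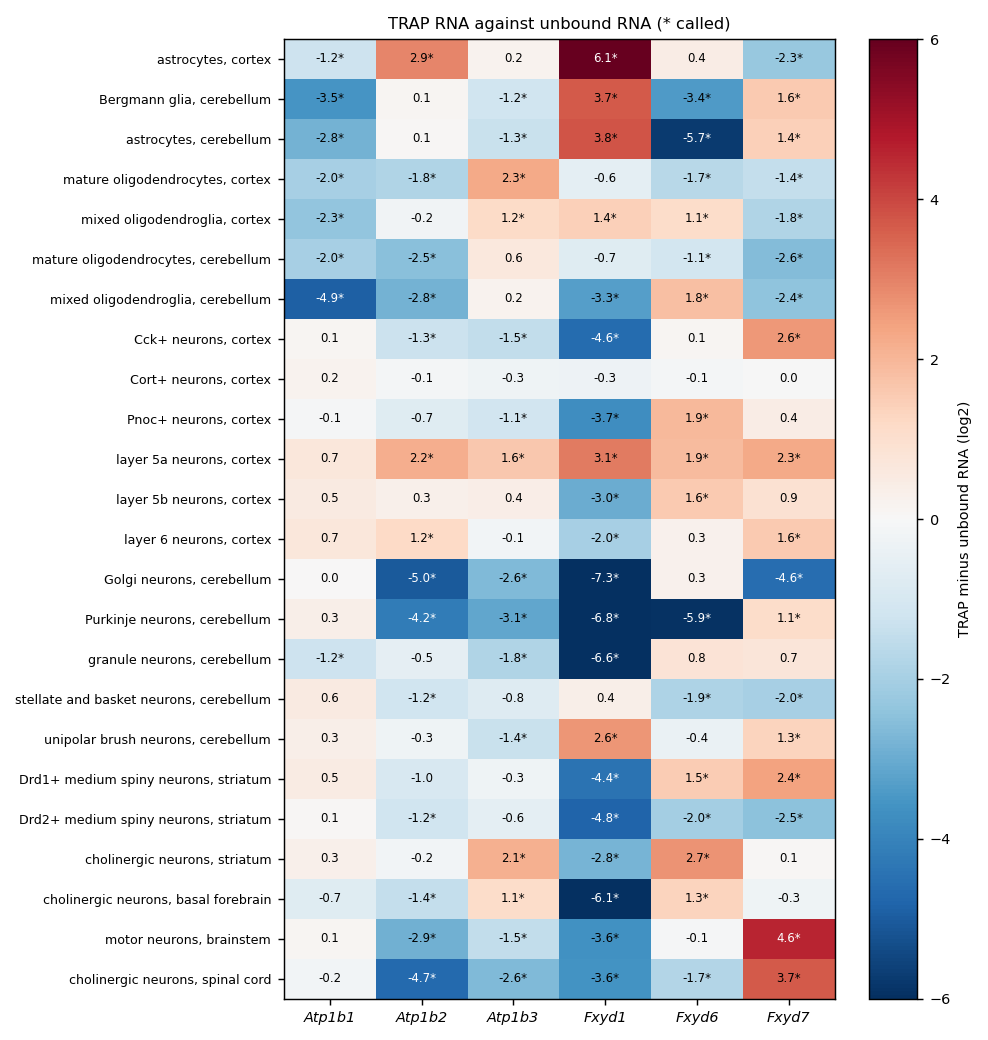
Log2 difference of TRAP minus unbound RNA of the same tissue for the 6 genes (columns) in the 24 populations (vertical axis), with colour for size and direction and a star for calls at an adjusted p under 0.05 and 2-fold. Atp1b1 is called lower in all 7 glial populations, Fxyd1 higher in the 3 astroglial ones and Fxyd7 most strongly in motor (4.57) and spinal cholinergic neurons (3.68).

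Whole tissues differed as well. Unbound cortex had less Atp1b2 than unbound cerebellum (-2.99 ± 0.31 SE, adjusted p = 4.87e-15, 7.96-fold), less Fxyd1 (-2.77 ± 0.25 SE, adjusted p = 1.13e-17, 6.81-fold) and less Atp1b3 (-1.54 ± 0.17 SE, adjusted p = 1.29e-13, 2.9-fold), with no overlap among 9 and 7 arrays. Fxyd7 was higher in cortex (1.23 ± 0.30 SE, adjusted p = 0.000132, 2.34-fold) with overlap, and Atp1b1 (0.47 ± 0.17 SE, adjusted p = 0.0108) and Fxyd6 (0.26 ± 0.27 SE, adjusted p = 0.348) were not called. Over 10356 genes 8.23% were called higher and 47.1% lower, with a median of -0.93; the split was 13.1% and 24.6% without further scaling and 16.7% and 19.9% with quantile normalization. Under both of these Atp1b3 lost its call (-0.95 and -0.92) and Atp1b1 was called higher in cortex (1.05 and 1.09), as was Fxyd6 under the second (1.22). Between unbound brainstem and spinal cord no member was called by limma or had an unadjusted p under 0.05, against 8.25% higher and 7.06% lower of 10533 genes (5.42% and 10.1% without further scaling). The largest difference there was -0.84 ± 0.50 (SE, adjusted p = 0.192) for Atp1b2, whose arrays did not overlap.

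The choice of probe set bears on Atp1b2 more than on the other genes. Atp1b1 had 5 probe sets, of which 3 followed the one used across the 24 populations with Pearson's r of 0.95 to 0.97, and 1 never reached the minimum. The second Atp1b2 probe set reached it in 4 populations only, was highest in Bergmann glia at 8.47, and followed the first with r of 0.73. Averaging both, cerebellar astrocytes and Bergmann glia exceeded unbound cerebellum in Atp1b2 by 1.27 and 1.81 and were called, while Cck+, basal forebrain cholinergic and Drd2+ neurons and cortical mature oligodendrocytes, at -0.62, -0.81, -0.81 and -0.54, lost their calls against unbound RNA. Cerebellar mixed oligodendroglia then had less Atp1b2 than mature ones, at -1.97. Atp1b3, Fxyd1, Fxyd6 and Fxyd7 had 1 probe set each.

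Other genes of the pathway were read from 2 lists, 9 further pump and FXYD family genes with a probe set and 9 transporters and channels that use or maintain the sodium and potassium gradients. Many of the first list were not detected: Atp1a4, Atp1b4, Fxyd3, Fxyd4 and Fxyd5 lay under the minimum in every TRAP population. Fxyd2, the kidney's gamma subunit, passed it in 6 populations and was highest in the striatum (8.20 in Drd1+, 8.06 in Drd2+ and 8.64 in cholinergic neurons). Of the 3 or 4 tested in each comparison, 1 was called higher and 1 lower in cortical astrocytes against neurons, 1 and 1 in cerebellar astrocytes, 2 and 0 in Bergmann glia, 2 and 2 in cortical and 2 and 0 in cerebellar oligodendrocytes. Nkain4, whose product binds the pump's beta subunit, was higher in cortical astrocytes (5.63, at least 46.1-fold), cerebellar astrocytes (4.70, at least 20.7-fold) and Bergmann glia (4.29, at least 15.5-fold). Nkain2 and Nkain1 of the same family were higher in oligodendrocytes of cerebellum (Nkain2 8.02, at least 75.6-fold; Nkain1 1.92, 3.79-fold) and cortex (Nkain1 2.95, 7.71-fold; Nkain2 1.57, 2.96-fold).

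Of the 8 gradient users tested, 4 were higher and 4 lower in cortical astrocytes than in neurons, 4 and 3 in cerebellar astrocytes, 5 and 3 in Bergmann glia, 2 and 4 in cortical and 4 and 1 in cerebellar oligodendrocytes. Over all genes tested, the shares called higher and lower were 25.9% and 36.5% in cortical astrocytes, 25.1% and 27.4% in cerebellar astrocytes, 32.1% and 19.2% in Bergmann glia, 11.9% and 38.8% in cortical and 24% and 17.4% in cerebellar oligodendrocytes. Slc1a3 and Slc1a2, the glial glutamate transporters, and Kcnj10, the inward rectifier that takes up potassium, were higher in all 3 astroglial sets, by 4.69, 2.49 and 4.79 in cortex; the first 2 also served as astrocyte markers. Slc12a5, the neuronal potassium-chloride exporter, was lower in them, by 62.3-fold in cortex and 52.4-fold in cerebellum. Slc12a2, the sodium-potassium-chloride importer, was higher in oligodendrocytes of cortex (2.95, 7.7-fold) and cerebellum (3.77, 13.6-fold). Slc8a1 and Slc8a3, which trade sodium for calcium, were lower in both astrocyte populations.

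As a description only, the genes whose means followed each member most closely over the 24 populations were found among 12392 genes expressed in at least 1 of them. These populations share lines, tissues and scaling, and no test goes with the values. Fxyd1 had the closest companions, Mt2 (Pearson's r 0.97), Tlcd1 (0.96) and Lcat (0.96), and Atp1b1 came second with Thy1 (0.94), Dlat (0.93) and Lin7b (0.93). Atp1b2 was followed by Gm11266 (0.90), Eva1a (0.88) and Pdk2 (0.86), and Atp1b3 by Nrbp2 (0.82), Map3k11 (0.81) and Tent5c (0.81). The patterns of Fxyd6 (Zfp811, 0.80) and Fxyd7 (Batf3, 0.77) were less closely matched. Among the members themselves the highest r was 0.76, for Atp1b2 with Fxyd1, and the lowest -0.41, for Atp1b1 with Fxyd1.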

How the data were processed

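Affymetrix arrays with 45101 probe sets were hybridized with TRAP or unbound RNA (107 arrays, 18194 genes; 34958 probe sets carry 1 symbol in GEO's platform annotation, 932 several and 9211 none). The authors deposited linear intensities from GCRMA, run within each group, per the series text and the labels; the version and the genome build are not given in the sources used here. Per the same text the replicates are separate TRAP preparations. From these deposited intensities, log2 values were taken after a floor of 1, and a constant per group made its average over 18 biotinylated controls, 10.13 to 12.00 before, the same in all groups, as the authors recommend. The authors also recommend removing probe sets with little TRAP over unbound RNA; this was used as an alternative. Array number and signal over background limit the precision.

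A single model in limma 3.58.1 (R 4.3.3) gave every TRAP population and every unbound tissue its own mean, with eBayes(trend=TRUE) and two-sided tests. Benjamini-Hochberg adjustment ran within each of 21 population comparisons and 24 comparisons with unbound RNA, over all genes with a mean of at least 6 in a compared group; calls needed an adjusted p under 0.05 and 2-fold. In limma, p-values cover the spread between preparations, not between the populations averaged on a side. The script was tested on simulated data with known changes. Ratios of probe sets used exact permutation tests over arrays, which treat the arrays of the pooled neuron populations as exchangeable. Promoters came from RefSeq (GRCm38.p6). Figures were drawn with Python 3.11.15 (pandas 2.3.3, numpy 2.4.6, matplotlib 3.10.9). The 6 genes and all lists were chosen with earlier results of these data known; genes named are the members, the 2 pathway lists and the 3 genes most like each member. Alternatives were other scalings, expression minimums, probe set means, fits on the compared arrays, unbound arrays and neuron sets, group means under the minimum set to 6, equal weights for neuron populations, single lines, a block for replicate numbers, and omission of each of 79 arrays in turn.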

Additional observations from a re-analysis of the deposited data

Results flagged for a closer look

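The 5 groups of 4 to 10 arrays gave 29 sets of 1 gene in 1 group with some spread, and in 5 of these sets, in 4 groups, 1 value stood far from the others by a test for outliers that picks out about 1 set in 20 by chance. Of these, 3 came from 2 unbound arrays of the cmtm5 (mature oligodendrocyte) line: Atp1b1 in unbound cerebellum at 14.88, with the next array at 14.05, Atp1b2 in unbound cortex at 9.03 against 10.41, and Fxyd7 in unbound cortex at 5.87 against 7.72. Without the arrays of that line, 67 of 68 calls against unbound RNA that it touched were kept, and Fxyd6 in cerebellar mature oligodendrocytes fell to -0.95 and under 2-fold. Atp1b3 in cortical astrocytes had 1 array of line JD133 at 11.36, with the next at 10.66. Fxyd1 in Purkinje neurons was marked at 2.73, where all 6 arrays agree to 2 decimals at a level under the minimum.

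Contrasts with neurons that differed between cortex and cerebellum, by a test of the difference itself (limma, adjusted p in the report), were those of astrocytes for Atp1b1 (1.23), Fxyd6 (3.80, but 0.97 and short of 2-fold with means under the minimum set to 6) and Fxyd7 (-5.67) and those of mature oligodendrocytes for Atp1b2 (-1.76), Fxyd1 (-1.66) and Fxyd6 (-2.95), each as cortex minus cerebellum on the log2 scale. With means under the minimum set to 6, the value for Fxyd7 in astrocytes was -4.40. The neuron populations averaged on the other side differ between these tissues.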

How the results depend on the processing

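Of 75 calls in population comparisons, 74 kept direction and threshold without further scaling, 68 with quantile normalization (which brought the median difference over all genes, -2.12 to 0.593 by comparison, to between -0.16 and 0.0815), 73 with the mean of all probe sets and 75 in fits on the compared arrays alone. Of 91 calls against unbound RNA, 82 of the 90 still tested were kept without further scaling and 73 of 86 with quantile normalization (medians over all genes -1.96 to 1.31, and -0.226 to 0.171 after it). With the mean of all probe sets 87 of 91 were kept and 89 in fits on the compared arrays. The labels do not say whether same-numbered arrays of different populations were prepared together. Their deviations correlated at a median of 0.0086 (range -0.36 to 0.35). Of 66 arrays, 31 lay closest to their own number, more than an even split over the replicate numbers would give. With the replicate block all 75 and 91 calls were kept and 1 was gained, Atp1b2 in Drd1+ neurons against unbound RNA at -1.03. Requiring TRAP above unbound RNA on the higher side kept 50 of 71 calls: 2 members were left for cerebellar oligodendrocytes minus neurons, 1 for cerebellar mixed minus mature oligodendroglia, 0 for cortical minus cerebellar oligodendrocytes (limma called 3 without it, and 3 of 6 had an unadjusted p under 0.05), 1 for Purkinje and 3 for granule neurons.

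Counts of members called also moved with quantile normalization: 1 for Bergmann glia minus cerebellar astrocytes, 1 for Cort+, 2 for Pnoc+ neurons, 4 for medium spiny minus cholinergic neurons. They moved to 1 for Bergmann glia with no minimum, 1 for Drd1+ minus Drd2+ neurons with a minimum of 8, and 3 for Purkinje neurons without unipolar brush and stellate and basket neurons. Without these and layer 5a neurons the balance of Atp1b2 to Atp1b1 in cerebellar oligodendrocytes passed at 2.80. Quantile normalization reversed Atp1b3 (0.11) and Fxyd7 (0.94) in Pnoc+ minus deep-layer neurons and, against unbound RNA, Atp1b3 in Pnoc+ neurons (0.0099). It also gave a call of Fxyd7 in basal forebrain cholinergic neurons against unbound RNA (1.13), which had not been called before (-0.27). Comparing TRAP minus unbound RNA between tissues gave 6 members for cortical minus cerebellar astrocytes and 1 for oligodendrocytes. The share of all genes called this way is not given here, so these counts are not read as a result about the members. In oligodendrocytes the calls of Atp1b2 (0.74) and Fxyd1 (0.14) were reversed. In astrocytes Atp1b2 (-0.105) and Fxyd1 (-0.39) had not been called, and now were, at 2.89 and 2.38. With group means under the minimum set to 6, 69 of 75 and 81 of 91 calls were kept, and Fxyd1 in cortical oligodendrocytes minus neurons was reversed (-0.53). With neuron populations weighted equally the balance of Atp1b2 to Atp1b1 moved to 5.14 in cerebellar astrocytes, 5.91 in Bergmann glia and 1.70 in cerebellar oligodendrocytes. Striatal unbound RNA of the own line alone, an alternative added after seeing the data like these 2 and those on neuron sets and the cmtm5 line, reversed Atp1b2 in Drd2+ neurons (0.24). In cholinergic neurons it gave a call of Fxyd7 (-1.40) that the pooled arrays did not (0.059). The cause was not tested for any of these.

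Leaving out each array in turn lost none of the 75 population calls and gained 4: Atp1b1 in astrocytes minus oligodendrocytes of both tissues, Fxyd7 in those of cortex, and Atp1b2 in medium spiny minus cholinergic neurons. Against unbound RNA 3 were lost (Atp1b2 in basal forebrain cholinergic neurons, Fxyd6 in cerebellar mature and cortical mixed oligodendroglia) and 2 gained (Atp1b2 in Drd1+, Fxyd6 in granule neurons), with totals of 90 to 92. Values at an array's minimum, under the level of 6, limit every statement on absence.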
